A study of Homo sapiens with 6 samples.

Results

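Heparan sulfate is a sulfated sugar chain, and the 10 genes described here build, modify, trim or carry it: EXT1, EXT2, NDST1, GLCE, HS2ST1, HS6ST1, HS6ST2, HS3ST1, SULF2 and GPC1. They were grouped because the zinc-finger protein ZNF263 has been linked to the control of heparan sulfate genes, HS3ST1 above all. The data are regions bound by another factor, ZIC2, and hold no ZNF263 binding, so that the genes are ZNF263 targets could not be checked. Members are the ZIC2 regions whose nearest edge lay within 100 kb of the start of 1 of the 10 genes on the hg19 build. There were 19 such regions, of 16077 in the series: 8 of the 7231 in the knockout list and 17 of the 12966 in the wild-type list, with 6 in both. The rule names the genes and uses no value of the regions. The genes and lists were, however, chosen with earlier results of these data known.

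ZIC2 binding was profiled by CUT&Tag, in which an antibody brings a transposase to a bound protein so that the nearby DNA is cut and tagged, in H1 (WA01), a human embryonic stem cell line. The knockout cells (KO) are H1 cells from which ZNF263 was deleted with Cas9; the labels call them homogeneous and the design text names 1 line, 1-10. The wild-type cells (WT) are H1 cells with ZNF263 intact. Each genotype has 2 ZIC2 libraries and 1 IgG library, which served no comparison here, and the labels do not say whether replicates were separate cultures. Each genotype is represented by 1 list of positions, with no height, read count or value per library. No test between genotypes was therefore possible, and the depth is unknown. Absence from a list says only that no region is listed there, not that signal was lower. The effect of losing ZNF263 and differences among the libraries or lines cannot be told apart, and the lists do not allow ZNF263 itself or the stem cell state to be checked.

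Heparan sulfate is made in the Golgi on core proteins such as the glypicans. The chain is polymerised by the EXT enzymes, then N-sulfated, epimerised and O-sulfated in turn, and the sulfate pattern decides which growth factors it holds. In pluripotent and early differentiating cells it is a co-receptor for FGF, WNT and BMP ligands.

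A region lay within 1 kb of the start given by the rule at 3 genes, GLCE, HS2ST1 and HS6ST1. The 250 bases before their starts are printed to show the sequence context of these regions, and those of HS3ST1 because its start held the most matches of any single start among the members to GGAGGA, the short repeat unit of the motif known for ZNF263. That choice was made after the matches were counted. The sequences are from RefSeq on GRCh38.p14, another build than the regions, were matched by gene symbol, and cannot be aligned with region edges here. They run 5′ to 3′ along the gene's strand, and capitals mark GGAGGA or its reverse complement TCCTCC.
GLCE (chr15:69160385-69160634, plus strand): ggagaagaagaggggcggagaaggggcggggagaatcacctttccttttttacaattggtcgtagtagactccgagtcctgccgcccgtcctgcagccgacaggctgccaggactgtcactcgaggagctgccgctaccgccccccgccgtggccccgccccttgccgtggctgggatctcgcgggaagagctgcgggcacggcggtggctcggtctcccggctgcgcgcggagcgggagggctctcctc
HS2ST1 (chr1:86914385-86914634, plus strand): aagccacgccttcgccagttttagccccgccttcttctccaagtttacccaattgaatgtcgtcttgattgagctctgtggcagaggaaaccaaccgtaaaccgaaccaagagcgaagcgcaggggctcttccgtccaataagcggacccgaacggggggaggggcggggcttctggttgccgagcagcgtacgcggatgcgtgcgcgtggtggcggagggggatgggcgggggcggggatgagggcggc
HS6ST1 (chr2:128318869-128319118, minus strand): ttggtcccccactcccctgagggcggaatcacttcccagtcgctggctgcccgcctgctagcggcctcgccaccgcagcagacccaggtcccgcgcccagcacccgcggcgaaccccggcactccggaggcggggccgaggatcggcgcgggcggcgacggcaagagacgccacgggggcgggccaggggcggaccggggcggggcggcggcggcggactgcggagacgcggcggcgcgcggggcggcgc
HS3ST1 (chr4:11428895-11429144, minus strand): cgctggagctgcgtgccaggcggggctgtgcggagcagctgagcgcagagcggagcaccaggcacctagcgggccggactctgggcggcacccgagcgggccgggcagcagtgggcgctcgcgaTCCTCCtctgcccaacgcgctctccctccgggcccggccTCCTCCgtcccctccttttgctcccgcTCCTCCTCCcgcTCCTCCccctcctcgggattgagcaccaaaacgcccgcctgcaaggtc

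HS3ST1 had 5 matches, each as TCCTCC, which begin 126, 87, 60, 57 and 48 bases before the start. Those at 60 and 57 overlap. The share of all starts with as many matches is not given here, so 5 cannot be called unusual. The other 3 printed sequences held neither GGAGGA nor CAGCAGG, the core of the motif known for ZIC proteins, on either strand. RefSeq starts were found for 9 of the 10 genes, 14 starts in all; EXT1 had no entry. GGAGGA or TCCTCC was in 7 of the 14 (50%), at HS3ST1, EXT2 and SULF2, and in 31.8% of all 35116 starts. Counted by gene, it was found at 3 of the 9 searched. CAGCAGG or CCTGCTG was in 1 of the 14, at EXT2, and in 8.48% of all. Of the 3 windows of EXT2, 2 overlap almost entirely, and EXT2 and SULF2 count with several starts each, so the 14 are not separate genes. The G+C share was 68.8% at GLCE, 63.2% at HS2ST1, 80.4% at HS6ST1 and 73.2% at HS3ST1, against a median of 58% over all starts. Over the 14 member starts it ranged from 48% at HS6ST2 to 84% at GPC1, with 5 starts below that median.

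ZIC2 regions were near fewer of these genes in the KO list than in the WT list. The KO list is also the shorter, with 7231 regions in all against 12966. In the KO list 4 genes had a region within 100 kb, GLCE, NDST1, EXT1 and HS6ST1. In the WT list 7 had one: these 4 and HS2ST1, HS3ST1 and EXT2. HS6ST2, SULF2 and GPC1 had none in either list. The KO list held 8 regions near the genes (95% Poisson interval 3.45 to 15.8) and the WT list 17 (9.90 to 27.2). Both intervals cover counting error only. For scale, of 15162 tiles of 200 kb on chromosomes 1 to 22 and X, 27.8% held a KO region, 42% a WT region and 46.6% a region of either list, with means of 0.475 and 0.853 per tile, against 0.8 and 1.7 per gene. The tiles include gene-poor sequence, and the starts of other genes were not analysed here. GLCE carried much of the sum. Without GLCE there were 5 KO and 11 WT regions.

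**Figure D1:**
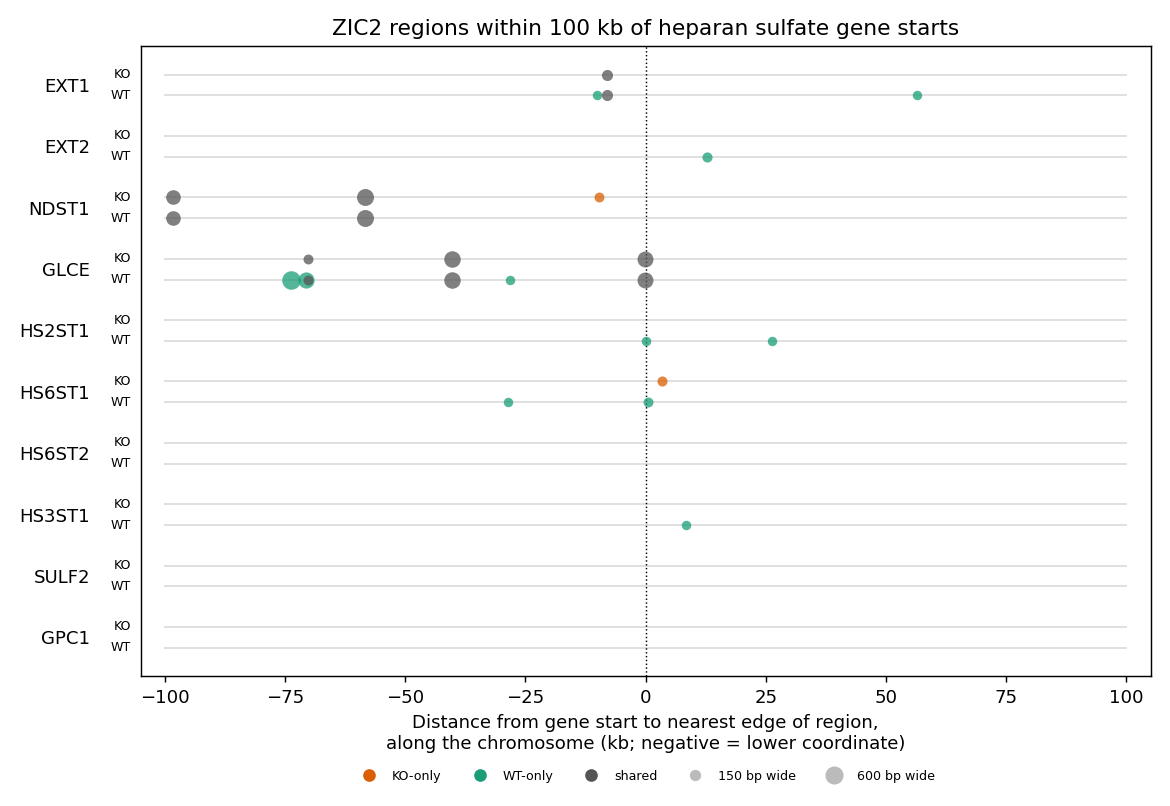
Each dot is a ZIC2 region, placed by the distance from the gene start to its nearest edge along the chromosome in kb; the upper line of each gene is the KO list, the lower line the WT list, dot size gives the width in bp, and colour gives the class. GLCE, HS2ST1 and HS6ST1 have a dot at the start, and HS6ST2, SULF2 and GPC1 have none.

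**Figure D2:**
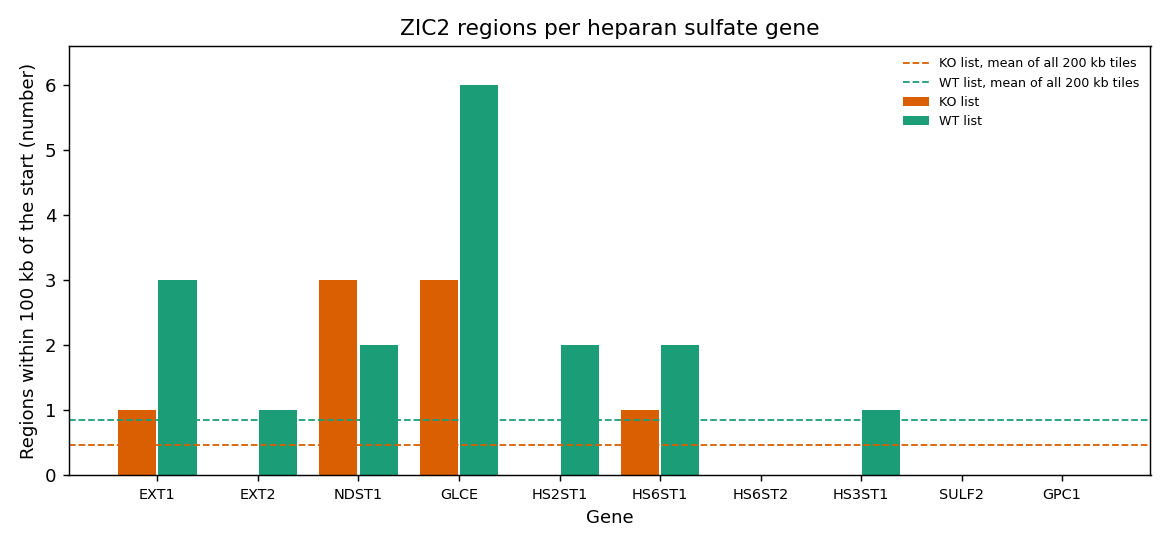
Bars give the number of regions within 100 kb of each start in the KO list (left) and the WT list (right), and dashed lines the means of all 200 kb tiles, 0.475 for KO and 0.853 for WT. GLCE has 3 KO and 6 WT regions, and NDST1, alone at this distance, has more in KO (3) than in WT (2).

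The share of regions found in 1 list or both could not be told from that of the whole lists. Of the 8 KO regions, 2 were not in the WT list (25%, exact Clopper-Pearson 95% interval 3.19 to 65.1), against 43% of all KO regions. Among the 17 WT regions, 6 were in the KO list too (35.3%, 14.2 to 61.7), against 31.8% of all WT regions. Both intervals include the value of the whole list, and regions of 1 gene are not independent. The 19 regions were thus 2 KO-only, 11 WT-only and 6 shared, where shared means an overlap of at least 1 bp. All 4120 overlapping pairs of the lists have identical edges, so a shared region has 1 width common to both genotypes. With edges this alike, the lists may not be separate calls, and how they were drawn up is not stated. KO-only and WT-only therefore mean only presence in 1 list. The KO-only regions were at NDST1 and HS6ST1, the shared ones at GLCE (3), NDST1 (2) and EXT1 (1), and the WT-only ones at GLCE (3), EXT1, HS2ST1 and HS6ST1 (2 each), HS3ST1 and EXT2 (1 each).

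The chain polymerase genes differed from each other. EXT1 and EXT2 encode the subunits of the enzyme that extends the sugar backbone. EXT1 (chromosome 8, start at 119.124 Mb) had 1 shared region of 259 bp, at 119115767 to 119116025, which is 7.98 kb from the start on the side of lower coordinates, the direction in which EXT1 is known to be transcribed. A WT-only region of 150 bp lay 1.80 kb beyond it, 10.0 kb from the start, and another WT-only region of 150 bp lay 56.5 kb from the start on the other side. EXT1 was thus the polymerase gene with a region near it in KO. At EXT2 (chromosome 11, 44.117 Mb) the nearest KO region, which is shared, was 148.6 kb downstream of the start. The WT list had 1 region nearer, WT-only and 195 bp wide, 12.8 kb downstream at 44129821 to 44130015.

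NDST1 had 3 KO and 2 WT regions within 100 kb, the difference being 1 KO-only region. Over wider distances this did not hold, with 4 KO and 4 WT regions within 250 kb and 6 KO and 14 WT regions within 1000 kb. NDST1 encodes an N-deacetylase and N-sulfotransferase, whose action on the chain precedes most other sulfation. Its 3 KO regions were all upstream of the start given (chromosome 5, 149.888 Mb). A KO-only region of 180 bp, at 149878071 to 149878250, was the nearest, 9.75 kb from that start. The RefSeq start of NDST1 on GRCh38 was not placed on hg19. The side and distance of this region from the RefSeq start are therefore not known. The other regions were shared, 648 bp wide at 58.3 kb and 493 bp wide at 98.3 kb, so that the nearest WT region was 58.3 kb from the start. On that side RefSeq places RPS14, a ribosomal protein gene, and then CD74 next to NDST1. The shared regions were not assigned to a gene. The one at 98.3 kb was the member nearest the limit of 100 kb; the nearest region outside it was at GPC1, at 124.8 kb.

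GLCE had the most regions of the 10 genes in the WT list and, with NDST1, in the KO list. It encodes the epimerase that turns glucuronic into iduronic acid in the chain. A shared region of 579 bp lay at the start (chromosome 15, 69.453 Mb), at 69452400 to 69452978. All others were upstream: shared regions of 617 bp at 40.3 kb and of 182 bp at 70.1 kb, and WT-only regions of 150 bp at 28.3 kb, 598 bp at 70.6 kb and 755 bp at 73.6 kb. GLCE thus had 3 regions in KO and 6 in WT. The WT-only region of 598 bp ended 0.35 kb from the narrower shared one, and the 755 bp region lay 2.38 kb farther out. These 2 WT-only regions were wide for their class, but they are the widest of the 11 near the 10 genes. Of all 8846 WT-only regions, 152 (1.72%) were at least 755 bp wide and 454 (5.13%) at least 598 bp. Tiles of 200 kb with at least 3 KO regions made up 4.74% of all, and tiles with at least 6 WT regions 1.69%. Small shares follow in part from looking at the widest regions and at the gene with the highest WT count. The next protein-coding genes on the upstream side in RefSeq are NOX5 and SPESP1.

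At the 2-O-sulfotransferase gene HS2ST1, whose enzyme acts on the iduronic acid that GLCE makes, the nearest KO region was KO-only, 150 bp wide and 203.2 kb downstream. The WT list had 2 regions within 100 kb, both WT-only. One, of 155 bp, lay at the start (chromosome 1, 87.380 Mb), at 87380062 to 87380216. The other, of 150 bp, was 26.4 kb downstream. HS2ST1 thus had 0 KO regions within 100 kb, whereas the wider region at the start of GLCE was in both lists. SELENOF is the neighbouring protein-coding gene on the upstream side, and the region was not assigned to either.

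HS6ST1 and HS6ST2, which encode 6-O-sulfotransferases, differed in whether any region was near. HS6ST1 (chromosome 2, 129.076 Mb) had 1 KO and 2 WT regions, none of them shared. The KO-only region, 190 bp at 129079435 to 129079624, was 3.44 kb upstream of the start. A WT-only region of 183 bp, at 129076437 to 129076619, lay 0.437 kb from the printed start, with a gap of 2.82 kb between it and the KO-only one, and a WT-only region of 150 bp was 28.7 kb downstream. Each genotype therefore had a region within 5 kb of the HS6ST1 start, but at different positions. HS6ST2 (chromosome X, 132.095 Mb) had its nearest KO region 289.2 kb downstream and its nearest WT region 275.1 kb upstream.

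HS3ST1 encodes a 3-O-sulfotransferase that makes the chain site to which antithrombin binds. Its nearest KO region, a shared one, was 931.6 kb downstream of the start (chromosome 4, 11.430 Mb). In WT it had 1 region within 100 kb, WT-only and 150 bp wide, 8.46 kb upstream at 11438462 to 11438611. The surroundings were sparse, with 1 KO and 5 WT regions within 1000 kb. HS2ST1 (1 and 6) and HS6ST2 (2 and 6) were nearly as sparse, and GLCE had the most (12 and 19). The 5 matches to TCCTCC printed above stand in the 250 bases before the RefSeq start on GRCh38. Those bases were not placed on hg19, so whether a ZIC2 region covers them was not checked. In neither list did a region lie nearer than 8.46 kb to the start given.

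The genes that act on finished chains or carry them had no region within 100 kb. SULF2, an enzyme that removes 6-O-sulfate groups outside the cell, had its nearest KO region 401.9 kb and its nearest WT region 137.0 kb away, both downstream. GPC1, a glypican that carries heparan sulfate at the cell surface, had its nearest KO region, a shared one, at 125.4 kb and its nearest WT region at 124.8 kb, both downstream. For HS6ST2, SULF2 and GPC1 a count of 0 in both lists shows only that no region was listed. Of the tiles, 53.4% held none either.

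Shared regions had the highest median width near these genes, and also in the whole lists. The 2 KO-only regions were 180 and 190 bp wide, against a median of 167 bp for all KO-only regions. The 11 WT-only regions had a median of 150 bp (range 150 to 755), against 181 bp for all WT-only regions. The 6 shared regions had a median of 536 bp (182 to 648), against 460 bp for all shared regions. At 150 bp, the smallest width in the lists, were 6 of the 11 WT-only regions (54.5%, Clopper-Pearson 95% interval 23.4 to 83.3), against 39.6% of all WT-only regions. Widths of WT-only and shared regions overlapped: at GLCE, the WT-only region of 598 bp was wider than 4 of the 6 shared ones near these genes, and that of 755 bp was wider than all 6.

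**Figure D3:**
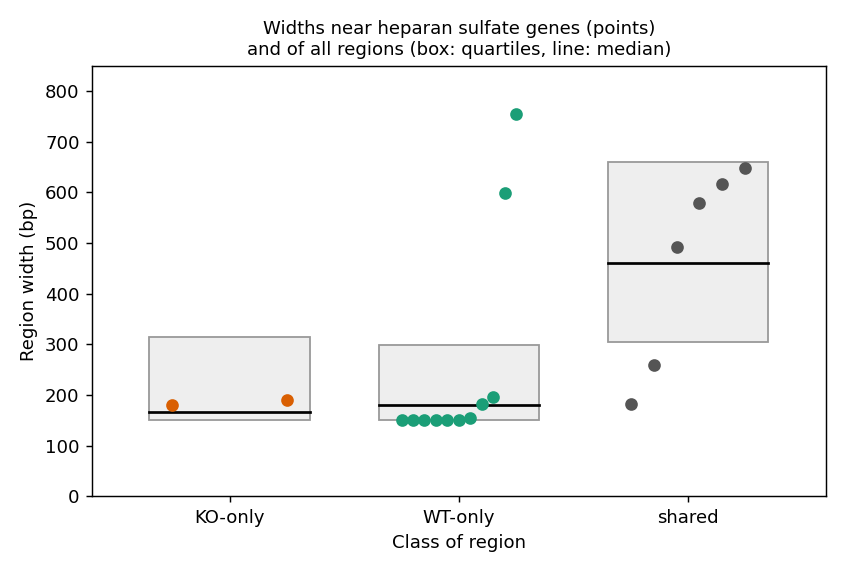
Points give the width in bp of each region near the genes by class, boxes the quartiles and lines the medians of all regions of that class (167 bp KO-only, 181 bp WT-only, 460 bp shared). The WT-only points at 598 and 755 bp are both from GLCE.

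Regions of both lists were densest next to the starts. Within 10 kb of the 10 starts lay 4 KO regions (Poisson 95% interval 1.09 to 10.2), at 4 genes, and 5 WT regions (1.62 to 11.7), at 5 genes. That is 4 and 5 regions per 200 kb of sequence, against genome means of 0.475 and 0.853. Both KO-only regions were within 10 kb of a start, as were 2 of the 6 shared and 3 of the 11 WT-only regions. Within 1000 kb there were 52 KO (38.8 to 68.2) and 108 WT regions (88.6 to 130.4), or 0.52 and 1.08 per 200 kb, and 10 of 10 genes had a region in each list. KO regions per 100 WT regions were 80 within 10 kb, 47.1 within 100 kb and 48.1 within 1000 kb, against 55.8 over the whole lists. The value at 10 kb rests on 4 and 5 regions. Starts are known only to 1 kb, so a region close to the limit could fall on either side. Such were the KO-only region at NDST1 (9.75 kb, counted) and a WT-only region at EXT1 (10.037 kb, not counted). How far binding at starts in general accounts for the density was not tested, as no annotation of hg19 was used.

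**Figure D4:**
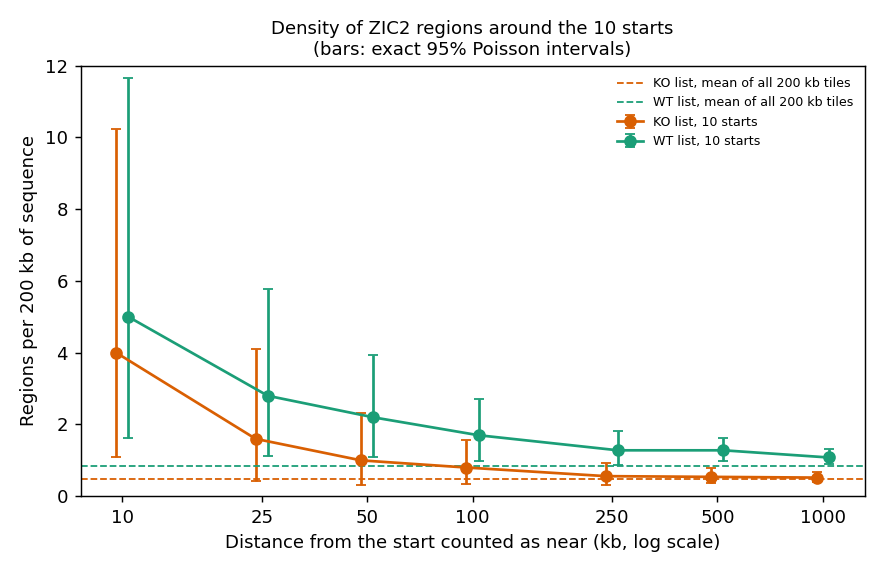
Regions per 200 kb of sequence (y axis) within each distance of the 10 starts (x axis, kb, log scale), for the KO and WT lists, with exact 95% Poisson intervals; dashed lines are the means of all 200 kb tiles. Density falls from 4 KO and 5 WT regions per 200 kb within 10 kb to 0.52 and 1.08 within 1000 kb.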

How the data were processed

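The authors deposited 1 list of ZIC2 peaks per genotype, each with chromosome, start and end and no score or count. Bowtie2, Picard and hg19 are named per the submitters' processing notes; the peak caller, its threshold, the use of IgG and the pooling of replicates are not stated in any source used here. Python 3.11.15 with pandas 2.3.3 and scipy 1.17.1 was used. Positions are counted from 1. Gene starts were given in Mb to 3 decimals, so they are known to 1 kb, and a region within 1 kb was not called upstream or downstream. Strands came from RefSeq promoters (GRCh38.p14), except for EXT1, whose strand is general knowledge; only names, neighbours, strands and sequences of that build were used. Distance runs from the start given to the nearest edge, and other starts of a gene were not placed on hg19. Regions overlapping by at least 1 bp are shared. With 1 list per genotype no test was made. All 10 genes are named. Genes and lists were chosen with earlier results of these data known. Other heparan sulfate genes were not analysed here, for want of an hg19 annotation. Routines were tested on simulated lists.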

Additional observations from a re-analysis of the deposited data

How the results depend on the processing

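The counts depend on how far from the start a region may lie and on the width asked of it. Within 50 kb there were 5 KO and 11 WT regions, and within 200 kb 27 WT regions. Leaving out GLCE gave 5 KO and 11 WT regions. Regions wider than 150 bp numbered 11 in WT. With a least width of 276 bp, the median over the lists, there were 4 KO and 6 WT regions at 2 genes in each list, NDST1 and GLCE, with a median width of 607.5 bp; 66.7% of these WT regions were also in KO, and 0% of the KO regions were missing from WT. Fewer regions enter under each of these limits, except within 200 kb. The other 78 of 91 values stayed within 1.5 times the count or within the interval given, including those with starts moved by 500 bp or, chosen after seeing the data, by 1 kb. The intervals are wide, so this tally says little about the shares. The share of WT regions also in KO counted as unmoved at 54.5% among regions wider than 150 bp, against 35.3%. Requiring 50% reciprocal overlap could move nothing, since overlapping pairs have identical edges, so its values add nothing to the tally. No paired analysis was possible because each genotype has 1 list and no values per library, and replicates could not be left out in turn either. Depth is unknown, so a weak region cannot be told from an uncalled one.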

Other observations

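At HS6ST1 a KO-only region had a WT-only region within 5 kb, and at NDST1 the KO-only region had none. In the whole lists 469 of 3111 KO-only regions (15.1%) had a WT-only region within 5 kb. Of the 11 WT-only regions near the heparan sulfate genes, 3 had a shared region within 5 kb, 1 at EXT1 and 2 at GLCE, against 641 of 8846 (7.25%) of all WT-only regions. These comparisons were chosen after the positions were seen and were not tested. The group of 3 regions about 70 kb upstream of GLCE is 1 of 301 runs in the joint lists with at least 3 regions and gaps of at most 5 kb.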
